A study of Bos taurus with 6 samples.

Results

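Some probes of the bovine array have no gene description, and their entry in the scanner files reads Unknown, although a few carry a gene symbol. There were 2056 such probes, each of 60 bases, among 43653 probes on the array besides controls. The 968 flagged by the scanner software as well above background in 3 or more of 6 arrays are described here, of 26823 probes kept by the same rule. The 968 are called members below, and the other 25855 described probes. Differences between the groups played no part in choosing members, but detection did. Of the members, 811 were well above background on all 6 arrays, 5 on no wild type array and 1 on no fat-1 array. Those 6 could pass only through the group in which they were brighter. The counts of adjusted calls, of 2-fold members and of pairs under 0.05 at both probes are therefore also given without them. Other counts may include them. Of the rest of the 2056, 891 were well above background on no array, 195 on 1 or 2, and 2 were left out for outlier flags. The 42 members that just passed, on 3 arrays, had a median level of -4.64, and the 58 that just failed, on 2 arrays, had -5.12. A level is the log2 processed intensity of a probe relative to the 75th percentile of its array.

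Whole blood had been drawn from the jugular vein in 6 female cattle. The 3 fat-1 animals carried a transgene and the 3 wild type animals did not, and each sample had its own array. The age on the labels was 3.5 years for fat-1 replicate 1 and 3 years for all others. fat-1 is a nematode gene for a desaturase that makes omega-3 from omega-6 fatty acids. The labels name neither the promoter that drives it nor the line of the animals. They give replicate numbers and say nothing on separate herds or draws, so p-values measure the spread between these samples. The fat-1 arrays shared one slide and one scan and the wild type arrays another, so effects of the slide and of the group cannot be told apart. Blood markers bore out the tissue, with 21 of 22 measured genes of leukocytes, platelets and red cells well above background on all 6 arrays. The exception was CXCR2, a neutrophil receptor, whose probe was detected on none. Of 6 genes of other tissues, 4 also had a probe well above background on all 6 arrays.

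Array makers design probes from several kinds of evidence. A gene-index consensus is assembled from partial sequences of expressed transcripts. An Ensembl transcript is a gene model placed on the genome. A transcript whose last exon was annotated too short leaves its true end outside any named gene, so a probe there has no description although it reads a known gene. Long gene families, such as the receptors of immune cells, are also poorly resolved in early assemblies, and their copies tend to lack names. Of the 2056 probes, 855 came from gene-index consensus sequences, 820 from Ensembl transcripts and 16 from GenBank records, and 365 carried no accession.

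The probes that carry the results are shown first, as the files list them, 5′ to 3′. The first set holds the 2 members past the threshold and, of the 10 members chosen because they differed together with their nearest named probe, the 7 outside the WC1 family. Capitals mark AATAAA, the commonest polyadenylation signal of mammalian transcripts, which was found in A_73_103968 alone among these 9.
A_73_100847: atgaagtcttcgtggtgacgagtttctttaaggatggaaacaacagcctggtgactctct
A_73_103968: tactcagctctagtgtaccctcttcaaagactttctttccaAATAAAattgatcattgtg
A_73_104086: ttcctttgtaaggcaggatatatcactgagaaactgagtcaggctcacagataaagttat
A_73_109199: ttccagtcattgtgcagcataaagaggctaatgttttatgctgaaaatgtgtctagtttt
A_73_118748: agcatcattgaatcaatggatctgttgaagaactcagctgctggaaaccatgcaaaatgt
A_73_112784: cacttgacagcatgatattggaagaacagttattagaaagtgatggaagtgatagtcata
A_73_P426891: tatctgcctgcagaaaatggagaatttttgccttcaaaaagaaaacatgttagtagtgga
A_73_102189: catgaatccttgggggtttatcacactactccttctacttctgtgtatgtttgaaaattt
A_73_101517: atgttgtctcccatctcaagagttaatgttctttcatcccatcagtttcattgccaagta
On the build Btau_3.1, A_73_100847 lies at chr15:51010889-51010948 on the forward strand and A_73_103968 at chr15:51217516-51217575 on the reverse strand. A_73_104086 lies at chr27:37386170-37386229 (forward), A_73_109199 at chr11:86243911-86243970 (reverse) and A_73_118748 at chr16:42813868-42813927 (reverse). A_73_112784 and A_73_P426891 lie at chr5:69023088-69023147 and chr5:69024090-69024149, both on the reverse strand. A_73_102189 lies at chr19:44562763-44562822 and A_73_101517 at chr24:41438301-41438360, both on the forward strand. Whether a probe lies in an exon, an intron or a UTR was not analysed here.

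The second set comes from receptor families of T cells. It is shown because 3 of its members share long runs of bases with described probes, which are printed beside them. Capitals mark the longest run shared by a probe and its partner. The partners are A_73_P091546 with A_73_P091571 (WC1.3), A_73_P091496 with A_73_P091506 (CD163L1), and A_73_P079241 with A_73_P054801, described as T cell receptor delta. In A_73_P091501 capitals mark the run it shares with A_73_P091546, and A_73_P091471 has none marked.
A_73_P091471: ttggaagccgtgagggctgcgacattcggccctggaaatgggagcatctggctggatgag
A_73_P091501: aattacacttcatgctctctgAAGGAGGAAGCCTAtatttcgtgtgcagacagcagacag
A_73_P091546: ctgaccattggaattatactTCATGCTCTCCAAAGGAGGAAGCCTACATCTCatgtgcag
A_73_P091571: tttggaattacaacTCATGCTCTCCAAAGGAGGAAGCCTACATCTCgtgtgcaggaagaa
A_73_P091496: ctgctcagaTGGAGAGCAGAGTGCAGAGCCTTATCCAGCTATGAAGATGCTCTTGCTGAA
A_73_P091506: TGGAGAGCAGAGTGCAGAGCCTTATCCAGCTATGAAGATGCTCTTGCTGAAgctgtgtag
A_73_P079241: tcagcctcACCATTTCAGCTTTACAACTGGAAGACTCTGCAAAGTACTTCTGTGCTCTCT
A_73_P054801: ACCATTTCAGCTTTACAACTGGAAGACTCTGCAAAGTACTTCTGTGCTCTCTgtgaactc
The shared run was 32 bases for A_73_P091546, 51 bases for A_73_P091496 and 52 bases for A_73_P079241. A_73_P091471 lies at chr5:9774965-9775024 (reverse), and its neighbour A_73_P091571 at chr5:9775300-9775703 (reverse). A_73_P091546 lies at chr5:110091551-110091610 (forward). A_73_P091501 is placed at chr5:109589130-109966434 (forward), and A_73_P091496 at chr5:109565429-109565879 (forward). Both spans are longer than the probe, and the span exceeded 1 kb for 22 members. A_73_P091506 lies at chr5:10006152-10006595 (reverse). A_73_P079241 lies at chr10:23918909-23918968 and A_73_P054801 at chr10:23918901-23918960, both on the reverse strand and overlapping. Across all members, 89 shared a run of at least 20 bases with some other probe, and 81 of those had a measured partner. Counting reciprocal partners once, these made 77 pairs, and the differences had the same sign in 64 of them (83.1%). The probes of a pair share arrays and sequence.

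Fewer of these probes than of described ones were detected in blood, in both genotypes. Among the 2056 probes, fat-1 replicates 1 to 3 had 45.7%, 48.2% and 49.7% well above background. Wild type replicates 1 to 3 had 46.7%, 46.6% and 44.0%. The groups overlapped, and the means of 47.9% ± 2.05 (SD, n = 3) and 45.7% ± 1.55 (SD, n = 3) differed by 2.13 percentage points. An exact permutation test over the arrays, two-sided, gave p = 0.3, and this design cannot go below 0.1. Described probes were detected at 62.5% ± 1.53 and 60.9% ± 1.57. Detection followed the source of the sequence. Gene-index consensus probes were kept in 544 of 855 cases (63.6%), close to the 68.1% of described probes from that source. Ensembl transcripts were kept in 274 of 820 cases (33.4%), against 50.2% of described ones, and probes without an accession in 138 of 365 (37.8%). Part of the Ensembl set lay among olfactory receptor genes, which act in the nose. Within 50 kb of a probe described as an olfactory receptor, 6 of 132 Ensembl probes were kept (4.55%), against 263 of 645 elsewhere (40.8%). The olfactory receptor probes themselves were kept in 30 of 727 cases (4.13%). Chromosome 15 held 137 of the 2056 probes (6.66%) and 3.53% of described probes.

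The members' differences between the groups were spread around a small positive median. The median fat-1 minus wild type difference was 0.11 on the log2 scale, against -0.06 for described probes, and 560 of 968 members lay above 0. With normexp, another background correction, the members' median was -0.10 and that of described probes -0.16. With no filter on dim probes the 2 medians were close, at -0.159 and -0.156. The sign of the members' median thus depends on the background correction and on the detection filter. The median differed by source. It was 0.21 for gene-index members, 0.13 for Ensembl members, -0.19 for members with no accession and -0.48 for the 12 from GenBank. With normexp these medians were 0.03, -0.22, -0.26 and -0.46, so the sign of the Ensembl median turned. Of the 12 GenBank members, 11 lie on the mitochondrial genome between bases 584 and 2807, so their median describes mainly that stretch. Described gene-index probes had a median of 0.01. The base composition of a probe moved with the difference in both sets. At 35% GC or less the median was 0.28 over 215 members and 0.11 over 4905 described probes. Above 50% GC it was -0.28 over 110 members and -0.27 over 5147 described probes. Members had a median GC of 41.7% and described probes of 45%, and the part of composition in the members' median was not tested.

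Past an adjusted p of 0.05 in limma, 2 of 968 members were called, where 0.171% of all probes kept were. Both were higher in fat-1 blood, but 1 of them, A_73_103968, was detected in fat-1 samples alone, which leaves 1 call among the 962 members detected in both groups. Of all probes kept, 0.0783% were called higher and 0.0932% lower. An unadjusted p under 0.05 was found for 158 members (16.3%), against 12.8% of all probes. Of the 158, 96 were higher and 62 lower (9.92% and 6.40% of members, against 6.1% and 6.71% of all probes). At least 2-fold apart with an unadjusted p under 0.05 were 64 members (6.61%), where 4.05% of all probes were. Of these 64, 45 were higher (4.65% of members against 2.18% of all probes) and 19 were lower (1.96% against 1.87%). Among members detected in both groups there were 60, with 42 higher and 18 lower. With normexp the same rule gave 18 of the 968 members, 5 higher and 13 lower. Without wild type replicate 3 it gave 141 members, and without fat-1 replicate 3 it gave 97. No overlap between fat-1 and wild type samples was seen for 201 members (20.8%), which is near the 19.6% of all probes. Of the 201, 95 were higher (9.81% against 6.88% of all probes) and 106 were lower (11% against 12.8%). With normexp 44 were higher and 103 lower. Without wild type replicate 3 the count without overlap was 508, and without fat-1 replicate 3 it was 333. Shares over all probes are not given for these alternatives or for detection in both groups, so those counts lack a baseline. The median difference of all probes kept moved too. It was -0.06 in the main fit and without fat-1 replicate 3, -0.15 with normexp and -0.13 without wild type replicate 3.

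A_73_100847, an Ensembl transcript probe on chromosome 15, headed the members that were detected on all arrays and did not overlap between groups. Its levels were 0.12, -0.11 and 0.41 in fat-1 replicates 1 to 3 and -2.69, -4.28 and -3.78 in wild type replicates 1 to 3. Every fat-1 sample was above every wild type sample. The mean was 0.14 ± 0.26 (SD, n = 3) against -3.59 ± 0.82, a rise of 3.72 ± 0.39 (SE) with a limma adjusted p of 0.0164. Its nearest named probe, 5114 bases away, reads TRPC2, an ion channel gene, from the opposite strand and differed by -0.34 (limma adjusted p = 0.607). On its own strand the nearest named gene was ART5, which encodes an ADP-ribosyltransferase, and 4 of the 5 probes described as ART5 were measured there, within 50 kb on the side from which transcription comes. The other ART5 probe was well above background on no array. The 4 differences were 1.20, 2.21, 2.22 and 1.60, and none passed the adjusted threshold. The ART5 probe at chr15:50991600-50991659 read -0.36, -0.81 and -0.32 in fat-1 samples and -1.82, -2.89 and -3.43 in wild type samples. The groups of that probe did not overlap either. The adjusted p of A_73_100847 ran from 0.0019 to 0.0876 over 14 alternatives and missed the threshold in 7, among them leaving out fat-1 replicate 1 (0.0876), 2 (0.0551) or 3 (0.0683) or wild type replicate 3 (0.0544). Its difference ran from 2.57 with normexp to 4.17.

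A_73_103968 carries AATAAA and came from a gene-index consensus on the reverse strand of the same chromosome. Its levels were -2.82, -2.72 and -3.32 in fat-1 samples and -4.70, -4.78 and -4.53 in wild type samples. It was well above background on all fat-1 arrays and on no wild type array, so it entered the test only through fat-1 samples. The measured means were -2.96 ± 0.32 and -4.67 ± 0.13, and the limma adjusted p was 0.0467. For processed intensity alone the fold was 3.28, which other background corrections need not keep. A bound takes, on each wild type array, the higher of the probe's level and the dimmest level still well above background. Here the probe's own level was the higher, so the fold equals the fitted difference of 1.71 ± 0.23 (SE) on the log2 scale. It is an estimate with that error and not a separate lower bound. Its nearest named probe, LRRC51 on the opposite strand at 8272 bases, differed by -0.14 (limma adjusted p = 0.766). With normexp the difference was 0.36 (adjusted p = 0.610), and the call was also lost without any one of the 6 samples, with adjusted p from 0.0708 to 0.177. In all it was lost in 11 alternatives. The others were quantile normalization (limma adjusted p = 0.0645), the authors' value table (0.0643), no filter on dim probes (0.102) and an intensity trend (0.0579). It held with a replicate block (0.0488) and with array weights (0.00464).

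The other members that were highest in fat-1 blood, by the rule of no overlap and detection on all 6 arrays, did not pass the adjusted threshold. There were 82 members higher and 91 lower under that rule, and the 10 at each end are named. The share of all probes under that rule is not given. A_73_P511198 on chromosome 18 read 0.59, 0.51 and 0.15 in fat-1 samples and -2.02, -4.08 and -0.88 in wild type samples. The wild type samples lay far apart from each other, and the difference of 2.74 ± 0.68 had an adjusted p of 0.202. Around it, in a stretch chosen after its values were seen, 5 of 8 measured described probes are described as leukocyte immunoglobulin-like receptors, inhibitory and activating receptors of white blood cells. All 8 had differences above 0, from 0.53 to 1.48. A_73_104086 on chromosome 27 read -1.66, -1.35 and -0.68 against -3.21, -4.10 and -2.36, a difference of 1.99 ± 0.44 (adjusted p = 0.158). It lies 4374 bases upstream of a probe for IDO1, the enzyme that starts the breakdown of tryptophan. The IDO1 probe read 2.20, 2.44 and 3.05 against 1.33, 0.68 and 1.62, so fat-1 samples were above wild type samples at both probes. A_73_P055911 on chromosome 15 differed by 1.45 ± 0.47 (adjusted p = 0.320). Its nearest named probe, for the mitochondrial ribosomal protein gene MRPL17, differed by -0.32, while a nearby probe described as Gvin1, a large interferon-induced GTPase, differed by 1.17. The remaining 6 were A_73_119131 at 1.57, A_73_115010 at 1.49, A_73_110338 at 1.47, A_73_116287 at 1.47, A_73_118810 at 1.45 and A_73_P494569 at 1.31. With normexp these 10 differences ran from 0.46 for A_73_P494569 to 2.57 for A_73_100847.

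Among the 10 lowest members, 4 lay in or beside the genes of WC1, a scavenger receptor family that marks gamma-delta T cells of ruminants. A_73_P091546 read -3.32, -2.05 and -2.44 in fat-1 samples and -0.87, -0.56 and -0.93 in wild type samples. A_73_P091516 read -1.72, -0.53 and -0.87 against 0.65, 1.00 and 0.40. A_73_P091471 read -1.64, -0.12 and -0.39 against 0.85, 1.42 and 0.73. In each of these members every fat-1 sample was below every wild type sample, and fat-1 replicate 1 was the lowest of all. The differences were -1.81 ± 0.33, -1.72 ± 0.33 and -1.71 ± 0.40, with adjusted p of 0.0982, 0.107 and 0.184. A_73_P091496, which shares 51 bases with a CD163L1 probe, differed by -1.49 ± 0.45 (adjusted p = 0.284), and that CD163L1 probe by -1.51. Without fat-1 replicate 1 the difference of A_73_P091496 was -0.95. A stretch of chromosome 5, from base 109485765 to 110695204, was chosen after its values were seen. It held 6 members, all with differences below 0 (-1.84 to -0.77), of which A_73_P115776 and A_73_P091501 were not detected in fat-1 replicate 1. Beside them, the 8 described probes that were detected in both groups and do not read the neighbouring gene MRPL51 were also below 0 (-2.20 to -1.52). Probes of this family that share sequence can read each other's transcripts, so they are not independent measurements.

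T cell receptor genes gave a second group on chromosome 10. The alpha and delta chain genes lie together in mammals, and they encode the antigen receptors of alpha-beta and gamma-delta T cells. A_73_P079196 read -0.63, 0.30 and -0.39 in fat-1 samples and 0.93, 0.94 and 0.86 in wild type samples, a difference of -1.15 ± 0.27 (adjusted p = 0.184). A_73_P079301 read -2.68, -1.62 and -2.26 against -1.05, -1.02 and -0.91, a difference of -1.19 ± 0.29 (adjusted p = 0.190). The wild type samples lay close together at both probes, and fat-1 samples were lower in each case. In a stretch from base 22658146 to 24512088, again chosen after its values were seen, 6 of 7 members were below 0, with a median of -0.94. Of 27 described probes there, 21 were below 0, with a median of -0.80. Over the whole array, 57.9% of members and 44.1% of described probes lay above 0. Probes in this stretch also share sequence, so they are not independent measurements. A_73_P079241 shared a run of at least 20 bases with 9 other probes and A_73_P079206 with 8. SOX13, a transcription factor known for its part in gamma-delta T cells, is read by a member, A_73_P071481, named after its values were seen. It read -4.86, -3.68 and -4.36 against -3.12, -2.63 and -2.67, a difference of -1.50 ± 0.32 (adjusted p = 0.143). Its level in fat-1 replicate 1 lay below -4.545, the dimmest level still well above background there, so the size is uncertain. All 5 general T cell markers (CD3E, CD3D, CD3G, CD4 and CD8A) were detected on every array, with differences from -0.60 to 0.73. Their mean level was 3.79 to 4.29 in fat-1 samples and 4.05 to 4.47 in wild type samples. The red cell markers HBA, HBB and ALAS2 differed by 1.72, 1.20 and 0.95, and their mean level was 6.43 to 7.41 in fat-1 samples and 4.33 to 7.43 in wild type samples. The part of cell numbers in these differences was not tested, and fewer cells of a type cannot be told apart from less RNA per cell.

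The other 4 of the 10 lowest lay elsewhere. A_73_P077848, an Ensembl probe at chrX:13916111-13916170, had no measured named probe within 50 kb. It read -0.18, -0.32 and -0.05 in fat-1 samples and 1.73, 1.08 and 1.54 in wild type samples, with no overlap. The difference of -1.63 ± 0.24 had an adjusted p of 0.0527, which ran from 0.0030 to 0.200 over 14 alternatives. A_73_118776 differed by -1.19 ± 0.29, and TMEM218, whose probe ends 146 bases from it, by -0.31. A_73_P488448 differed by -1.07 ± 0.31, and the probe of IGLL1, an immunoglobulin light chain-like gene 106 bases away, by -0.05. A_73_100605 differed by -1.04 ± 0.44 (adjusted p = 0.381), by -0.62 without fat-1 replicate 3 and by -0.67 without wild type replicate 2. With normexp the 10 lowest differences ran from -1.51 to -0.91.

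Many members lay near probes of named genes. A position was given for 924 members, and 676 of them had a measured probe with another description and a gene symbol within 50 kb. The nearest such probe had a difference of the same sign in 454 of 676 pairs (67.2%). Between neighbouring named probes of different genes the share was 64.9% of 13609 pairs, and between named probes of one gene it was 84.6% of 15984. The distances differed, with medians of 3355 bases for members, 11494 for different genes and 609 for one gene. Differences above 0 were found for 59.6% of these members and 56.4% of their neighbours. For named probes of different genes these were 35.4% and 34.7%, and for one gene 42.7% and 42.4%. Agreement in sign thus has a different baseline in each set. The same-sign shares also differed with orientation. Members read from the same strand as their neighbour had the same sign in 387 of 546 pairs (70.9%), with r = 0.54. Members read from the opposite strand had it in 67 of 130 pairs (51.5%), with r = 0.06. For named probes of different genes the shares were 65.1% and 64.8%. Of the member pairs, 7 on the opposite strand and 4 on the same strand joined a GenBank member to the same mitochondrial ND1 probe, at 0.06. None of these pairs had the same sign. Members downstream of their neighbour on its strand had the same sign in 255 of 342 pairs (74.6%), and those upstream in 120 of 185 (64.9%). Among the downstream ones the share was 73.9% within 5 kb and 76.4% from there to 50 kb. These shares describe probes measured on the same 6 arrays, pairs are not replicates, and the differences between shares were not tested.

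Among members with an unadjusted p under 0.05, 75 of 94 had the sign of their nearest named probe (79.8%). Under the same rule the share was 72.1% of 1480 for named probes of different genes and 94.1% of 1773 for named probes of one gene. For 33 pairs both probes had one, and all 33 agreed in sign, as did all 30 in which both probes were detected in both groups. Of the 33 members, 31 lay on the strand of the neighbour, 21 were downstream of it, and 25 were higher in fat-1 blood. Between named probes of different genes, 130 of 144 such pairs agreed in sign (90.3%), and 125 of 138 with detection in both groups. The 10 pairs with the largest smaller difference are given. Besides the IDO1 pair, 3 were WC1.3 pairs. A_73_P091471 at -1.71 stood 276 bases from a WC1.3 probe at -1.70. A_73_P091546 stood 37701 bases from another at -1.69. A_73_P091501, at -1.56 ± 0.33, was listed 37753 bases from one that was well above background on no fat-1 array, so only the sign of that neighbour's difference is used. That distance starts at the end of the span given for A_73_P091501, which is longer than the 50 kb window. The true distance, and so its place among these pairs, is uncertain.

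The other 6 pairs were higher in fat-1 blood at both probes. A_73_109199 lay 1645 bases downstream of LRATD1 and read -4.10, -3.62 and -3.56 in fat-1 samples and -6.42, -3.90 and -5.96 in wild type samples. The LRATD1 probe read -1.33, -1.15 and -0.50 against -3.84, -1.91 and -2.11. Wild type replicate 1 was lowest at both probes, and the differences were 1.66 and 1.63. Within this pair the groups overlapped at A_73_109199 and not at LRATD1. A_73_118748 lay 2062 bases downstream of CAMTA1, a calmodulin-binding transcription activator, with differences of 1.30 and 1.25. A_73_112784 and A_73_P426891 both read BLTP3B, a member of the bridge-like lipid transfer proteins, and differed by 1.25 and 1.20. Without wild type replicate 2 they differed by 0.78 and 0.76. Of the 2 described BLTP3B probes, one differed by 0.86, and the nearer, at 1.47, was well above background on no wild type array. A_73_102189 lay 838 bases upstream of NBR1, a receptor of autophagy, with differences of 1.31 and 1.16. A_73_101517 lay 3420 bases downstream of ARHGAP28, with differences of 1.1 and 1.09. The groups also overlapped at A_73_112784, A_73_P426891 and A_73_102189, and at the ARHGAP28 probe. A_73_109199, A_73_112784 and the ARHGAP28 probe were well above background on 1 wild type array each. A_73_118748 and the CAMTA1 probe were so on 2. None of the 10 members passed the adjusted threshold. With normexp these members differed by -0.02 (A_73_112784), 0.05 (A_73_109199), 0.14 (A_73_118748), 0.40 (A_73_P426891), 0.43 (A_73_102189) and 0.47 (A_73_101517), so their size depends on the background correction of dim probes.

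Some members read genes that can be named now. An accession or name led to a symbol for 147 members, which cover 140 genes, and 116 of them had a described probe of the same gene among those kept. The member had the sign of the described probes' median in 97 of 116 cases (83.6%), and in 14 of 14 with an unadjusted p under 0.05. For other genes a member was the only measured probe with that name, and these examples were chosen after their values were seen. PTPN4, a tyrosine phosphatase, read -2.63, -2.40 and -3.12 in fat-1 samples and -4.63, -5.13 and -3.95 in wild type samples at A_73_110433, a difference of 1.85 ± 0.33 (adjusted p = 0.0963). EML5, of a family that binds microtubules, differed by 2.04 ± 0.57 at A_73_P080741 (adjusted p = 0.253). Fat-1 samples were above wild type samples at both genes. Both differences exceed most of the highest members listed above, which had to be detected on all arrays. Neither member is in that list, so each missed detection on some array. The level of PTPN4 in wild type replicate 2 lay below -4.86, the dimmest level still well above background there. The sizes of both differences are therefore uncertain, and their values with normexp are not given. IGDCC3, an immunoglobulin superfamily gene, read 0.34, -0.59 and 0.51 against -0.77, -1.70 and -1.72 at A_73_115010, a difference of 1.49 ± 0.37 (adjusted p = 0.209).

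The polyadenylation signal AATAAA, searched on the strand as listed, occurred in 89 members (9.19%) and in 9.35% of all probes on the array. Its reverse complement TTTATT occurred in 4.13% of members and 3.46% of all probes. By source, AATAAA was in 11.6% of gene-index members and 2.55% of Ensembl members. A match says only that these letters are in the probe.

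The 6 members with the highest mean level had small differences between the groups. They were A_73_P106806, A_73_P494258, A_73_P113466, A_73_116293, A_73_P489883 and A_73_P100450. A_73_P106806 read 8.84, 8.69 and 8.22 in fat-1 samples and 8.82, 9.03 and 8.51 in wild type samples, with overlapping groups. Differences ran from -0.39 (A_73_P489883) to -0.20, with unadjusted p of 0.113 to 0.443. The groups did not overlap at A_73_P489883, whose highest fat-1 level was 7.95 and lowest wild type level 7.98. It shares 27 bases with a probe for RPL27, a ribosomal protein gene. A_73_P100450 lies on the mitochondrial genome, whose transcripts are abundant in most cells. Of 15 probes there, the 4 on the forward strand were detected on all 6 arrays at levels of 5.95 to 8.29, and 7 of the 11 on the reverse strand were kept. The forward probes differed by -0.23 to -0.18, and the kept reverse probes by -1.1 to -0.43. Of the 32 described forward probes there, all were detected on all arrays.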

How the data were processed

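Arrays were 1-colour Agilent bovine arrays and, per the submitters' processing notes, the software was Agilent Feature Extraction (10.7.1.1). The processed intensity deposited by the authors is background-subtracted, per the file headers, and was not scaled between arrays. Flags, a category of 0 or 1, were used as deposited. A table of log2 values deposited by the authors, with a median of 6.38 per column, served as an alternative. Processed intensity was taken to log2 minus the 75th percentile of each array. Probes with an outlier flag on any array (32) were left out. The test was eBayes after lmFit (limma 3.58.1, R 4.3.3), with Benjamini-Hochberg adjustment over 26823 probes and a threshold of 0.05. On simulated data with 200 changed probes of 26823, 129 were called, and 6 unchanged ones. Names came from a RefSeq table of ARS-UCD2.0 or the file, for 33524 probes. Positions are those of Btau_3.1, per the file headers. Members named are those past the threshold, the 10 highest and 10 lowest with no overlap and detection on all arrays, the 6 with the highest level, and 10 members that differed together with their nearest named probe. Members and lists were chosen with earlier results of these data known. The number of arrays limits the precision. Alternatives were quantile normalization, normexp with an offset of 50, the value table, other filters, a replicate block, an intensity trend, array weights, other windows and leaving out each sample.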

Additional observations from a re-analysis of the deposited data

How the results depend on the processing

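The count of members past the adjusted threshold, 2, was 0 with quantile normalization, with the authors' value table and with no filter on dim probes. It was 6 with normexp, 101 with array weights and 4 with a trend on intensity, and 0 to 3 when 1 sample was left out. The count at least 2-fold apart, 64, was 18 with normexp, 97 with no filter and 40 with detection required on all 6 arrays, and 43 to 141 with 1 sample left out. The count without overlap was 239 to 508 with 1 sample left out, which needs fewer samples to be apart. Shares over all probes kept are not given for the alternatives in this section, so these counts lack a baseline. The median difference reversed to -0.10 with normexp and to -0.16 with no filter, and was 0.06 to 0.12 with 1 sample left out. With no filter the median of described probes was -0.16 as well. The same-sign share stayed between 63.6% and 70.1% in all alternatives run. Replicate numbers are shared by the groups, but same-numbered samples correlated at 0.117, 0.185 and 0.00584, so the numbers were not taken to pair the samples. With the replicate number as a block, 6 members passed the threshold and 71 were 2-fold apart. The slide as a block was not run, because each slide holds 1 group. The causes of these shifts were not tested. At dim probes the background correction changes the size of the differences.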

Other observations

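Among the 33 members that differed together with their nearest named probe, several outside the 10 described above lay at genes of known function, chosen here after their values were seen. A_73_117986 lay 1757 bases downstream of ARRDC3, an arrestin-domain gene, with differences of 0.95 and 1.57. A_73_110419 lay 6860 bases downstream of EXOC1, a subunit of the exocyst, with 1.02 and 1.27. A_73_P442121 and A_73_P269956 both lay upstream of USP32, a ubiquitin protease, with 0.86 and 0.95 against 0.84. A_73_111876 lay 831 bases downstream of FST, which encodes follistatin, with -0.87 and -0.64. None of these members passed the adjusted threshold.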
